A study of Rattus norvegicus with 6 samples.

Results

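The angiotensin system was followed in AR42J, a rat pancreatic acinar tumour cell line, through 5 genes: Agtr2, Agtr1a, Agt, Ace and Agtrap. They were represented by 8 probe sets, each kept separately, out of 15866 probe sets and 10411 named genes on the array. Agtr2 was picked because its signal differed strongly between treated and control cultures in these same data. The other genes were taken because they belong to the same system, also with earlier results of these data known. The treated against control values of all 5 genes are therefore given as a description, with no test. Cells treated with 100 nM dexamethasone for 48 h (dexamethasone, n = 3) were compared with cells kept in the same medium without it for 48 h (control, n = 3). Per the series' text these were 3 independent pairs, made in separate repeats of the experiment. All cultures were thawed at passage 29 and plated for 24 h in 20% serum before the change to 5% serum, so the serum step was common to both groups. One cell line at 1 dose and 1 time limits what the values stand for.

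In the classical system, angiotensinogen is cut to angiotensin I, and angiotensin-converting enzyme makes angiotensin II from it. The peptide acts on G protein-coupled receptors: the type 1 receptor drives vasoconstriction, calcium release and growth, while the type 2 receptor is abundant in fetal tissue and in many accounts opposes the type 1 receptor. A local angiotensin system has been described in the pancreas, including in acinar cells. Dexamethasone is a synthetic glucocorticoid, and the liver angiotensinogen gene is a textbook target of the glucocorticoid receptor.

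Each array gave a trimmed mean MAS5 signal of about 500, so signals are relative to the rest of the array. A background level was set for each array at the brightest of its 27 Bacillus subtilis control probe sets, and was 83.7 to 115.9 on dexamethasone arrays and 51.7 to 97.3 on control arrays. The same signal could therefore be above background on a control array and not on a dexamethasone array. Counts of arrays above background are not like for like between the groups. Of 11 acinar marker genes on the array, 11 were above background on all 6 arrays. Of 6 endothelial markers, 2 were above it on all arrays, and Kdr and Icam2 on none. The counts on all arrays were 4 of 8 for stromal markers, with Vim and Lum on none, and 1 of 7 for immune markers, with Ptprc and Itgam on none. No marker was listed at 0.

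Agtr2, an X-linked gene that encodes the type 2 angiotensin II receptor, was the member with the largest difference. The 250 bases upstream of its annotated start (RefSeq, GRCr8, chrX:116914070-116914319, plus strand) are shown because the gene had the strongest difference of the 5. Capitals mark a match to TATANA whose first base is at position -39 from the start.
Agtr2 upstream: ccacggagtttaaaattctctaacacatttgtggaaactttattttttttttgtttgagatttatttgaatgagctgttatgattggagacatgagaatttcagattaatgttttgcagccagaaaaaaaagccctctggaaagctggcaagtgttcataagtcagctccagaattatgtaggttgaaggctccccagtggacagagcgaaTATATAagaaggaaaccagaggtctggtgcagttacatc
TATANA was found in 24.2% of the 33469 upstream windows of the same length in the RefSeq table, searched on both strands. The window held no match on either strand to the full glucocorticoid response element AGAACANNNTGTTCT, to its left arm AGAACA or to the AP-1 motif TGANTCA, which 0.012%, 17.5% and 6.34% of windows held. These traits were not particular to Agtr2. The windows of Agtr1a, Ace and Agtrap held no match to these motifs either, and TATANA was also found in Agtr1a (-45) and Ace (-42). GC content was 38.0% in the Agtr2 window, against a median of 51.2% over all windows.

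The brighter Agtr2 probe set, 1398288_at, had signals of 115.9, 112.8 and 103.1 on dexamethasone arrays 1 to 3, against 2090, 2193 and 1738 on control arrays 1 to 3. The groups did not overlap, and the dexamethasone signals sat close together. Their mean was 110.6 ± 6.7 with dexamethasone and 2007 ± 238 in control (SD, n = 3 each), a log2 difference of -4.18 ± 0.10 (SD over the 3 replicate numbers) or 18.1-fold lower. The dexamethasone signals were above the array's background level on 2 of 3 arrays, and control signals on 3 of 3.

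The other Agtr2 probe set, 1369711_at, had signals of 97.1, 170.7 and 165.7 with dexamethasone, against 1380, 1388 and 1167 in control. It too separated the groups, with dexamethasone array 1 the lowest of the 6. The log2 difference was -3.22 ± 0.53, or 9.34-fold lower, with 2 of 3 dexamethasone arrays above background. The probe sets are annotated from the same sequence record and gave the same direction with differences of unequal size. By replicate number the log2 difference ran from -4.28 to -4.08 for 1398288_at and from -3.83 to -2.82 for 1369711_at. With signals below background raised to that level, the differences were -4.12 and -3.21. Among 7051 genes tested, with 1 probe set each, Agtr2 had the 9th largest fall in the fitted log2 change, the value it was chosen on. In a bulk culture, fewer cells that express a gene and less of its RNA per cell cannot be told apart.

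**Figure D1:**
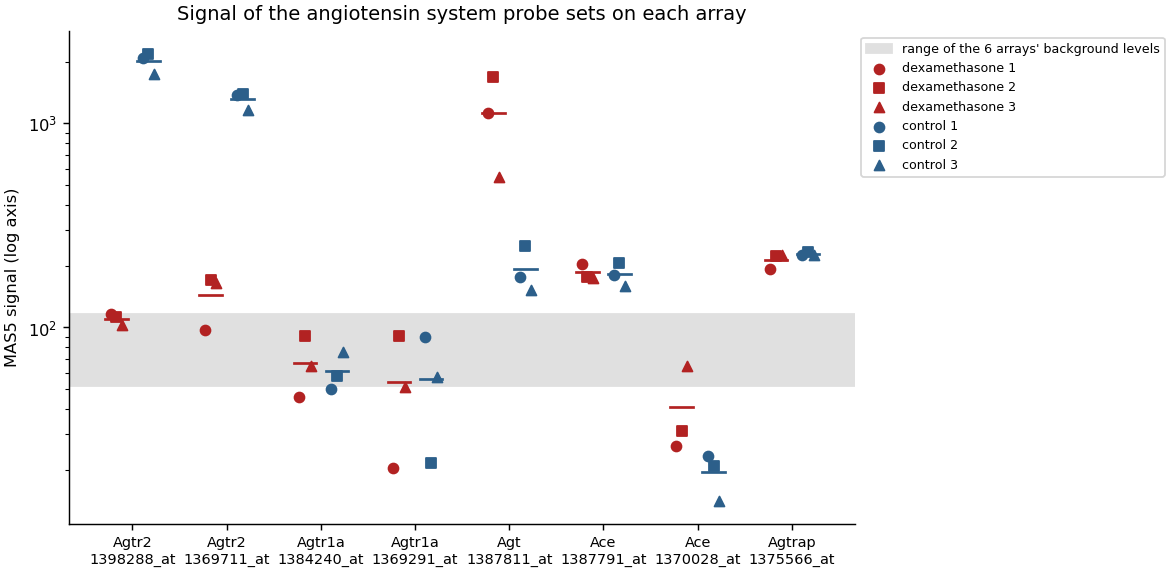
MAS5 signal on a log axis for each of the 8 probe sets, with dexamethasone arrays in red to the left and control arrays in blue to the right. Bars are group means (n = 3), and the grey band spans the background levels of the 6 arrays, 51.7 to 115.9. Both Agtr2 probe sets are lower with dexamethasone, Agt is higher, and the Agtr1a probe sets lie within or below the band.

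Agtr1a encodes the main type 1 angiotensin II receptor of rodents, and neither of its probe sets was bright enough to test. Probe set 1384240_at had signals of 45.9, 90.5 and 64.6 with dexamethasone, against 49.8, 57.8 and 75.6 in control, and 1 of 3 arrays in each group was above background. Probe set 1369291_at had 20.4, 91.2 and 51.4 with dexamethasone, against 89.8, 21.6 and 57.0 in control, with 1 dexamethasone array and 2 control arrays above background. The groups overlapped for both probe sets. Neither group was above background on all 3 arrays for either probe set, so a level of Agtr1a RNA could not be clearly separated from background. Agtr1b, a close paralog whose transcript may share probes with Agtr1a, had signals of 36.8, 63.9 and 59.9 with dexamethasone, against 23.8, 40.4 and 41.6 in control. None of these 6 values was above background.

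Agt encodes angiotensinogen, the precursor of all angiotensin peptides, and differed the opposite way to Agtr2. Its signals were 1129, 1681 and 544.0 with dexamethasone, against 177.2, 251.7 and 152.0 in control. The groups did not overlap, although dexamethasone array 3 was much lower than the other 2 treated arrays. The mean was 1118 ± 568 with dexamethasone and 193.6 ± 51.8 in control, and all 6 arrays were above background. The log2 difference was 2.42 ± 0.50, or 5.34-fold higher, and by replicate number the fold was 6.37, 6.68 and 3.58. Without dexamethasone replicate 3 the log2 difference was 2.86. The spread among treated cultures was wider for Agt (coefficient of variation 50.8%) than for either Agtr2 probe set (6.04% and 28.5%). By the fitted log2 change it had the 72nd largest rise of the 7051 genes.

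Ace, the converting enzyme that also breaks down bradykinin, had 2 probe sets annotated from the same sequence record. The brighter, 1387791_at, had signals of 205.6, 176.8 and 175.4 with dexamethasone, against 180.9, 207.3 and 159.6 in control. The groups overlapped, all 6 arrays were above background, and the log2 difference of 0.03 ± 0.23 was smaller than its spread over replicate numbers. It was -0.22 with hybridization control scaling. The other, 1370028_at, was below background on all 6 arrays, at 26.2, 31.1 and 65.1 with dexamethasone and 23.5, 21.0 and 14.1 in control. Ace is also abundant in endothelial cells. The summed signal of the 6 endothelial markers was 535.2 to 677.5 on dexamethasone arrays and 321.5 to 454.4 on control arrays. Only Pecam1 among them was bright enough to test. It was above background on all 6 arrays and rose by 1.05 ± 0.27 (SE, limma adjusted p = 0.0143). The brightest Flt1 probe set was also above background on all 6 arrays but under the filter, and Kdr and Icam2 were above background on no array. The part of such cells in the Ace values was not tested.

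Agtrap encodes a membrane protein that binds the type 1 receptor and promotes its internalisation. Its signals were 193.3, 224.4 and 225.5 with dexamethasone, against 226.2, 233.2 and 226.6 in control. The lowest control value exceeded the highest treated value by less than 1 signal unit, and dexamethasone array 1 was the lowest of the 6. The log2 difference was -0.10 ± 0.12, which changed sign to 0.03 with 75th percentile centring. Of the 8 probe sets, 5 entered the test across the array and 3 were too dim, namely both of Agtr1a and 1 of Ace.

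**Figure D2:**
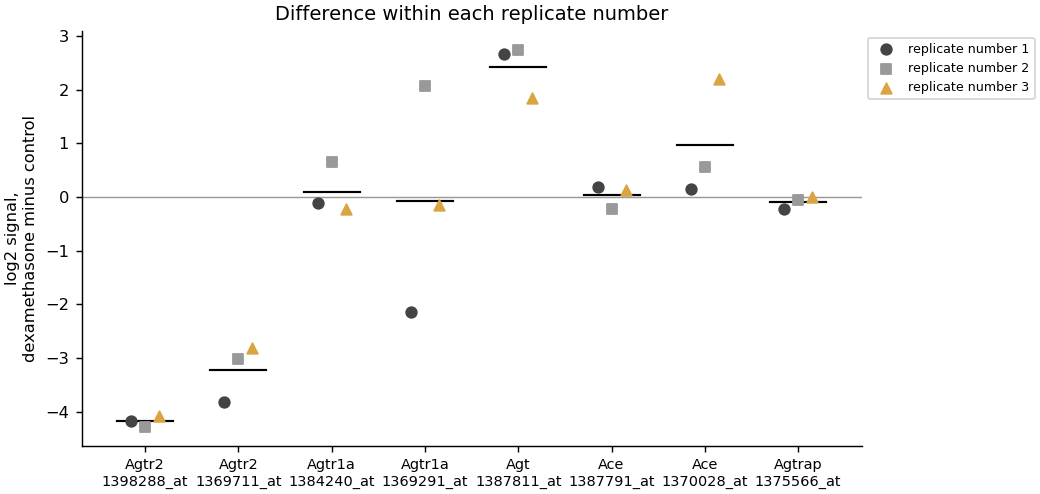
Log2 signal with dexamethasone minus control within each replicate number (points) and the mean of the 3 (black line) for each probe set. Agtr2 lies at -4.18 and -3.22 and Agt at 2.42. The points of Agtr1a 1369291_at and of Ace 1370028_at, both too dim to test, scatter widely.

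Other genes of the system were read from lists, with 1 probe set a gene. The lists were chosen with earlier results of these data known. Across the array, limma called 38.4% of 7051 genes at an adjusted p of 0.05 (Benjamini-Hochberg), 17% higher and 21.4% lower with dexamethasone, and their median log2 change was -0.04. Over probe sets these shares were 37.1% of 9520, 15.9% higher and 21.2% lower. With the deposited scaling, 42.8% of changed probe sets were higher, against 57.5% with 75th percentile centring and 19.3% with hybridization control scaling. Over the 9520 probe sets, the median log2 change was -0.05 as deposited, 0.08 with that centring and -0.29 with that scaling. Shifts of this size bear on the small changes below.

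Of 19 other genes of angiotensin-processing peptidases and peptide receptors, 13 had a one-symbol probe set on the array and 6 were bright enough to test. Of these 6, 1 rose, 3 fell and 2 did not pass, and their median log2 change was -0.43. Ctsa, the lysosomal carboxypeptidase cathepsin A, had signals of 1249, 1123 and 1122 with dexamethasone, against 556.6, 672.7 and 545.5 in control. The groups stood apart and the gene rose by 0.98 ± 0.14 on the log2 scale (SE, limma adjusted p = 0.000868).

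Thop1, thimet oligopeptidase, which cuts angiotensin I to angiotensin-(1-7), had 977.0, 939.7 and 824.4 with dexamethasone, against 1422, 1441 and 1380 in control. It fell with a log2 change of -0.63 ± 0.12 (limma adjusted p = 0.00451). Anpep, aminopeptidase N, which trims angiotensin III, had 778.2, 857.0 and 718.5 with dexamethasone, against 1153, 957.3 and 1171 in control. Its log2 change was -0.48 ± 0.15 (limma adjusted p = 0.0335). Prep, prolyl endopeptidase, another enzyme that can form angiotensin-(1-7), had 486.4, 401.1 and 454.6 with dexamethasone, against 610.9, 640.3 and 594.4 in control, a log2 change of -0.46 ± 0.15 (limma adjusted p = 0.0383). The groups did not overlap for these peptidases, but nor did they for Agtrap, whose log2 difference was -0.10. The share of all probe sets without overlap is not given here, and non-overlap is not support beyond the calls. The calls of Anpep and Prep were lost with quantile normalization and with 75th percentile centring, which left 1 gene called lower. They were also lost without replicate 1, without replicate 3, without control replicate 1 and without control replicate 3, and each of these again left 1 lower. That of Prep was lost as well without replicate 2, without dexamethasone replicate 2 and without control replicate 2. With no filter on dim probe sets neither passed (adjusted p = 0.0525 for Anpep and adjusted p = 0.059 for Prep, limma), and with no intensity trend Anpep did not (limma adjusted p = 0.0594).

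Enpep, aminopeptidase A, which makes angiotensin III, did not pass (-0.39 ± 0.20, limma adjusted p = 0.158), but passed and was lower with hybridization control scaling (-0.64, adjusted p = 0.0249). Cpa3, a mast cell carboxypeptidase, did not pass either (0.38 ± 0.21, limma adjusted p = 0.201). Nln, neurolysin, was too dim to test at 16.9, 15.2 and 20.6 with dexamethasone, against 140.5, 72.0 and 104.6 in control, with none of the treated and 2 of the control arrays above background. Mas1, the receptor for angiotensin-(1-7), had 146.8, 140.2 and 214.3 with dexamethasone, against 134.5, 129.3 and 37.8 in control, and was also under the filter. Klk1, tissue kallikrein, ranged from 101.0 to 130.5 with dexamethasone and from 102.5 to 123.9 in control. Mme (neprilysin) and Cma1 (chymase) were below background on all 6 arrays, and the brighter Lnpep probe set, for the enzyme also known as the angiotensin IV receptor, was too. The other 6 genes of the list were not analysed here.

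Among 13 partners and signalling genes of the type 2 receptor, 7 could be tested, of which 3 rose, 2 fell and 2 did not pass, with a median of 0.61. Dusp1, a phosphatase that switches off MAP kinases, had signals of 660.4, 1741 and 1177 with dexamethasone, against 177.2, 171.1 and 137.8 in control. It rose by 2.78 ± 0.26 (limma adjusted p = 7e-05), and it is also a well-known glucocorticoid-induced gene. Erbb3, a growth factor receptor reported to bind the type 2 receptor, had 392.0, 559.6 and 398.0 with dexamethasone, against 179.1, 125.3 and 48.1 in control, and rose by 2.11 ± 0.32 (limma adjusted p = 0.00115) with 2 of 3 control arrays above background.

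Mtus1, which encodes a protein that binds the tail of the type 2 receptor, had 358.5, 286.9 and 394.6 with dexamethasone, against 242.1, 206.2 and 216.1 in control. It rose by 0.64 ± 0.18 (limma adjusted p = 0.0216), and its other probe set rose by 1.17 ± 0.23 (limma adjusted p = 0.00473). The call of the brighter probe set was lost with hybridization control scaling (adjusted p = 0.0957), without replicate 1 and without replicate 3, and, in fits without pairs, without dexamethasone replicate 1 and without control replicate 3.

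Gnai2, an inhibitory G protein subunit to which the type 2 receptor couples, had 310.2, 442.2 and 300.6 with dexamethasone, against 608.7, 598.8 and 542.1 in control. It fell with a log2 change of -0.75 ± 0.16 (limma adjusted p = 0.00743). Ppp2cb, a catalytic subunit of protein phosphatase 2A, had 1823, 1569 and 1650 with dexamethasone, against 2353, 2078 and 2416 in control. Its log2 change was -0.44 ± 0.11 (limma adjusted p = 0.0156), a call lost with 75th percentile centring (adjusted p = 0.0588), without replicate 2 and without replicate 3, and, in fits without pairs, without control replicate 1 and without control replicate 3. The other catalytic subunit gene, Ppp2ca, did not pass (-0.16 ± 0.15), nor did Timp3, an inhibitor of matrix metalloproteases (0.61 ± 0.22, limma adjusted p = 0.056).

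Of 16 genes of type 1 receptor signalling, 9 were tested, of which 1 rose, 2 fell and 6 did not pass, with a median of -0.28. Rgs2, which limits signalling through Gq proteins and is a known brake on the type 1 receptor, had signals of 1307, 1144 and 1544 with dexamethasone, against 134.6, 216.1 and 166.5 in control. The gap between groups was wide, and the gene rose by 2.97 ± 0.20 (limma adjusted p = 1e-05). Its other probe set was too dim to enter the test, with no control array above background, and was at least 9.21-fold higher with dexamethasone.

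Arrb2, the beta-arrestin 2 gene, whose product desensitises receptors and carries G protein-independent signals, had 192.1, 170.7 and 197.3 with dexamethasone, against 634.9, 477.0 and 577.1 in control. It fell with a log2 change of -1.59 ± 0.16 (limma adjusted p = 0.000125). Plcb1, a phospholipase that couples Gq to calcium release, fell with a change of -0.93 ± 0.18 (limma adjusted p = 0.00463). The genes that did not pass were Gna11, Grk2, Arap1, Rock2, Itpr1 and Prkcd, with log2 changes between -0.49 and 0.54. Leaving out dexamethasone replicate 1 (no replicate block) gave 2 genes of the list higher. Jak2, a kinase activated by the type 1 receptor, was too dim to test at 35.8, 13.2 and 36.6 with dexamethasone, against 91.3, 103.0 and 117.2 in control.

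**Figure D3:**
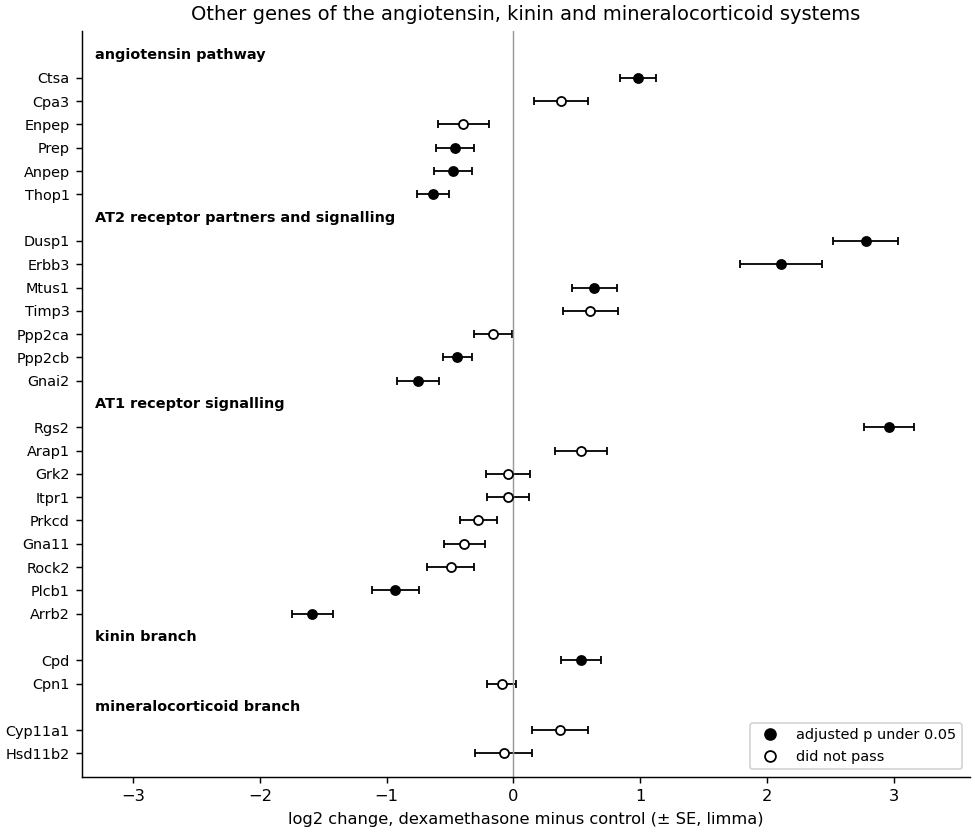
Log2 change with dexamethasone minus control for the tested genes of each list, with SE from limma. Filled points passed an adjusted p of 0.05. Rgs2 (2.97), Dusp1 (2.78) and Erbb3 (2.11) lie farthest to the right and Arrb2 (-1.59) farthest to the left.

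The kinin branch is linked to the system through Ace, which degrades bradykinin. Of 9 genes, 2 were tested. Cpd, a carboxypeptidase that can trim kinins, had 2324, 2281 and 3484 with dexamethasone, against 1491, 2142 and 1907 in control, and rose by 0.53 ± 0.15 (limma adjusted p = 0.0256). That call was lost with hybridization control scaling (adjusted p = 0.144) and without dexamethasone replicate 3 (adjusted p = 0.115). It was also lost when dim probe sets were kept or the intensity trend was dropped, and without replicate 1, replicate 3, dexamethasone replicate 1, control replicate 1 or control replicate 3. Cpn1, carboxypeptidase N, did not pass (-0.09 ± 0.11). The bradykinin receptor genes Bdkrb1 and Bdkrb2 were too dim to test. In the mineralocorticoid branch, the hormonal output of the system, 2 of 7 genes were tested, and limma called 0, also at an unadjusted p under 0.05. Cyp11a1, the first enzyme of steroid synthesis, changed by 0.37 ± 0.22 and Hsd11b2, which inactivates glucocorticoids, by -0.08 ± 0.22. Nr3c2, the mineralocorticoid receptor gene, was under the filter at 143.5, 111.3 and 120.8 with dexamethasone, against 64.2, 102.5 and 91.9 in control.

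To place the profile of Agtr2 among other genes, each profile was taken as log2 signal minus its own control mean, and the root mean square difference from Agtr2 1398288_at was computed over the 6 arrays for 7050 genes. The closest was Pclaf, with a difference of 0.11 on the log2 scale. Top2a (0.23), Rcor2 (0.30), Cdk1 (0.34), Mki67 (0.43), Dnmt1 (0.47), Spc25 (0.50) and Ncapd2 (0.52) followed. Rcor2 had signals of 56.7, 52.6 and 45.8 with dexamethasone, against 637.2, 962.3 and 626.6 in control, and like Dnmt1, Spc25 and Ncapd2 it was above background on none of the dexamethasone arrays. The other Agtr2 probe set lay at 0.74, and 17 genes were closer to 1398288_at than it was. The measure is dominated by the size of the treated against control difference on which Agtr2 was chosen. The summed signal of 6 proliferation genes, Mki67, Top2a, Cdk1, Ccnb1, Mcm6 and Pcna, was 1902 to 2260 on dexamethasone arrays and 15800 to 16272 on control arrays, and its part in the Agtr2 difference was not tested.

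**Figure D4:**
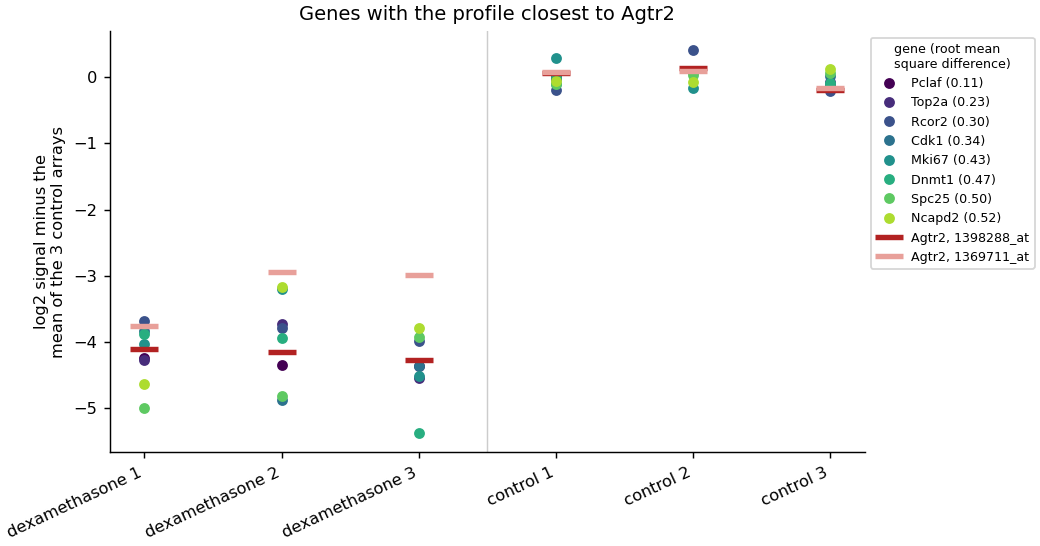
Log2 signal minus the mean of the 3 control arrays on each of the 6 arrays, for both Agtr2 probe sets (bars) and the 8 genes closest to 1398288_at (points), with the root mean square difference in the legend. Pclaf, at 0.11, stays closest to Agtr2 1398288_at, and 1369711_at lies above it on all 3 dexamethasone arrays.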

How the data were processed

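RNA from 3 dexamethasone and 3 control cultures was hybridised to Affymetrix Rat 230A arrays, 1 per culture. The deposited intensities are linear MAS5 signals. Per the submitters' processing notes, the authors used GCOS and MAS5; versions and scaling settings are not given in the sources used here. Of 15923 probe sets, 57 array controls were left out. Symbols came from the platform annotation, updated by gene identifier through the RefSeq gene table of GRCr8: 12783 probe sets had 1 symbol, 312 several and 2771 none. Values of 0, 4 in all, were set to 0.1 before log2. Probe sets with a mean log2 signal under the 40th percentile (a signal of 147.6) were not tested, which left 9520. Treatment was fitted with replicate number as a block in limma 3.58.1 (R 4.3.3; eBayes with an intensity trend, tested on simulated data), with Benjamini-Hochberg adjustment over these probe sets. A gene was represented by its brightest probe set (mean log2 signal).

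A group below background on all arrays gives a bound: the mean log2 signal of the brighter group minus the mean, per array, of the higher of background level and own signal. Named were the 5 genes, the genes of the first list on the array, other listed genes past the threshold and the 8 nearest profiles; other listed genes, and those too dim to test, were named with their values known. The 5 genes, the lists and the background level were chosen with earlier results of these data known. Upstream sequences were matched for 4 of the 5 genes, with the 50 bases after the start left out. Agt had no entry, so its upstream window was not searched. The alternatives were other scalings, no filter, a pseudocount of 50, no replicate block, no intensity trend and leaving out arrays. Some items of the lists are not reported here. The number of arrays limits the precision.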

Additional observations from a re-analysis of the deposited data

How the results depend on the processing

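The log2 difference of Agtr2 1398288_at was -4.05 with 75th percentile centring and -4.42 with hybridization control scaling. It was -3.67 with a pseudocount of 50, which compresses low signals by construction. Its sign held under all 14 alternatives run, which the size of the difference made near certain beforehand. Leaving out arrays gave -4.28 to -4.11 for it, -3.43 to -2.92 for 1369711_at and 2.05 to 2.86 for Agt. Hybridization control scaling gave 778 probe sets higher and 3257 lower (1512 and 2019 as reported), 5 type 1 receptor signalling genes lower in place of 2 and 0 kinin branch genes higher in place of 1. Quantile normalization and 75th percentile centring each gave 1 angiotensin pathway gene lower in place of 3 and 2 type 1 receptor signalling genes higher in place of 1, and the centring gave 1 type 2 receptor list gene lower in place of 2. With no intensity trend, 2 type 1 receptor signalling genes were higher. With no filter or no intensity trend, limma called 0 kinin branch genes higher (1 at an unadjusted p under 0.05 in each) and 2 angiotensin pathway genes lower in place of 3. Anpep lost its call in both settings and Prep with no filter, where a gene otherwise too dim to test was called. The cause of these shifts was not tested. Leaving out arrays gave 1035 to 1433 probe sets higher and 1399 to 2097 lower, 1 to 3 pathway genes lower, 1 to 2 type 2 receptor list genes lower, 1 to 2 type 1 receptor signalling genes higher and 0 to 1 kinin branch genes higher. With no replicate block, 3542 probe sets were called, against 3531 with the block, and the list counts were the same. The series' design text calls the cultures pairs. Same-numbered arrays had correlations of their deviations from the group means of -0.095, 0.112 and 0.211. Dexamethasone 2 and dexamethasone 3 correlated best with the control of the same number, but dexamethasone 1 did so with control 2 (0.175). The numbers are therefore not clearly shown by the values to mark the pairs. Low signals limit Agtr1a, the dimmer Ace probe set and the treated level of Agtr2, which lie near the background level.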

Other observations

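Agtr2 lies on the X chromosome, and the genes nearest to it in the RefSeq order of GRCr8 that are on the array were read on both sides, a choice made after the values of Agtr2 were seen. Of the 8 nearest, 4 on each side, limma called 3 lower and 1 higher, 2 did not pass and 2 were too dim to test. Pls3, an actin-bundling protein gene with 2 protein-coding genes between it and Agtr2, had signals of 623.0, 623.5 and 809.9 with dexamethasone, against 1400, 1099 and 1415 in control (log2 change -0.93, limma adjusted p = 0.000982). Amot, an angiostatin-binding protein gene with 7 genes between, had 347.6, 375.0 and 389.9 with dexamethasone, against 803.6, 615.5 and 827.7 in control (limma adjusted p = 0.00133). Pgrmc1, a progesterone-binding membrane protein gene, changed by -0.36 (limma adjusted p = 0.0373). On the same side as Pgrmc1, Slc25a5, an ADP/ATP carrier gene, changed by 0.66 (limma adjusted p = 0.000447). The log2 changes of the 6 neighbours tested were all smaller than that of Agtr2. Agtr2 was chosen for its large difference, so this comparison says nothing about the locus. Of 171 X chromosome genes tested, 25 were higher and 46 lower, with a median log2 change of -0.10, against 1171 higher and 1463 lower of 6880 other genes, with a median of -0.04; the difference between these sets was not tested.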
